A study of Mus musculus with 16 samples.

Results

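The 43 genes described here take part in fatty acid oxidation or are reported targets of PPARalpha, the nuclear receptor that drives fat burning in the fasted liver. They were taken by gene symbol, and 40 of them were measured by a probe set that the array annotation pairs with a single gene, out of 19237 genes measured in all. Acadvl, Cyp4a10 and Acot8 had no such probe set and were left out. Where a gene had several probe sets, the brightest on average was used. Expression was measured in 16 mouse livers, each on an Affymetrix array of its own. In 8 livers LRH-1 (gene Nr5a2), a nuclear receptor of liver, was deleted (LRH-1 hep-/-, below hep-/-), and 8 livers came from LRH-1 hep +/+ mice (below hep +/+). All mice were 17 to 19 weeks old, ate freely until they were killed at 7 am, so that neither group was fasted. The labels do not spell out what hep stands for, and the sources used here give neither the promoter that drives the deletion nor strain or sex.

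The mitochondrion takes in long-chain fatty acids as carnitine esters through the carnitine shuttle and shortens them to acetyl-CoA by beta-oxidation. Peroxisomes shorten very long-chain and branched fatty acids and dicarboxylic acids, microsomal Cyp4a enzymes hydroxylate the far end of the chain, and thioesterases release free fatty acids from CoA. PPARalpha pairs with the retinoid X receptor on DNA elements made of a repeated AGGTCA half-site and induces genes of each of these branches. The branches are taken in that order below, with the regulators before them.

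Nr5a2 itself ran from 7.25 to 8.25 with a median of 7.77 log2 intensity in hep-/- livers, against 8.45 to 8.78 with a median of 8.70 in hep +/+ livers. The genotypes did not overlap, and the signal in hep-/- livers was 54.2% of that in hep +/+ livers (change -0.88 ± 0.12 log2, SE, limma adjusted p = 4.5e-05). The sources used here do not say which exons the probe set covers. Hep-/- liver 8 kept the most Nr5a2 signal of its genotype, at 8.25, followed by hep-/- livers 4 and 5 at 8.15 and 8.06. Of 10 hepatocyte markers 9 were measured, with mean levels of 12.12 to 13.12 in hep-/- livers and 12.15 to 13.12 in hep +/+ livers, and 0 of the 9 were called in limma (1 at an unadjusted p under 0.05). Summed adipocyte markers (8 genes) stood at 1190 intensity units in hep-/- liver 1 and at 1340 and 532 in hep +/+ livers 5 and 8, against 201 to 265 in the other 13 livers. Summed skeletal muscle markers (8 genes) stood at 4330 in hep-/- liver 5 and 6030 in hep +/+ liver 4, against 253 to 378 in the other 14. Stellate cell markers summed to 2460 to 3570 in hep-/- livers and 2110 to 3030 in hep +/+ livers. The highest sums were in hep-/- liver 5 and hep +/+ liver 4, the livers with skeletal muscle transcripts. Of the 8 stellate cell markers 4 were called higher (50%, against 5.49% of all genes) and 1 lower (12.5%, against 3.2%). Cholangiocyte markers summed to 271 to 345 in hep-/- livers and 237 to 290 in hep +/+ livers, with 2 of 6 called higher (33.3%). The part of stellate cells and cholangiocytes in the results below was not tested. In whole tissue, fewer cells of a type and less RNA per cell cannot be told apart.

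Promoter sequence was looked up to show where the letters of a PPARalpha element stand before these genes. RefSeq promoters (GRCm38.p6, 250 bases before to 50 after the start) were at hand for 31 of the 43 genes. A repeat of AGGTCA with 1 base between its copies, allowing 2 mismatches on either strand, stood in 4 of the 31 (12.9%: Etfa, Slc25a20, Creb3l3 and Acot4), against 4.4% of all 27025 genes with a promoter. The LRH-1 half-site CAAGGTCA, with no mismatch, stood in 1 of the 31 (3.23%, Acot3), against 1.76% of all genes. Its last 6 letters are the same AGGTCA, so the motifs overlap by design. None of the 4 genes with the PPARalpha letters was called in these livers, and 6 of the 10 genes called below had a promoter to search, of which 0 held them. A match is a description of letters and not of a bound site. The 3 matches that lie wholly before the start are printed with their surroundings, 5′ to 3′ on the strand of the gene, with the matched letters in capitals.
Acot4, chr12:84038319-84038378, + strand: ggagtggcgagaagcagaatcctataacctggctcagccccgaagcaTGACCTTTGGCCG
Creb3l3, chr10:81092764-81092823, - strand: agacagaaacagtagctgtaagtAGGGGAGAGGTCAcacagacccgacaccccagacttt
Etfa, chr9:55512284-55512343, - strand: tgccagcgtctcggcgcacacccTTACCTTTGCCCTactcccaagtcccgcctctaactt
In Creb3l3 the repeat reads on the strand of the gene, while in Acot4 and Etfa it reads on the opposite strand, which is why the capitals there begin with TGACCT or a near copy of it.

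Over the whole group, 9 of the 40 measured genes were higher in hep-/- livers at an adjusted p under 0.05 (22.5%), against 5.49% of all 19237 genes, and 1 was lower (2.5%), against 3.2% of all genes. Higher were Vnn1, Pdk4, Abcd2, Ehhadh, Pex11a, Acaa1a, Decr1, Acadm and Hsd17b4, and the gene that fell was Ppara itself. By branch, 5 of 11 peroxisomal and 2 of 12 mitochondrial genes were called higher, as were both targets outside these branches, Pdk4 and Vnn1. In the carnitine shuttle 0 of 4 genes were called, as were 0 of 4 microsomal genes and 0 of 4 thioesterases. All 4 microsomal genes and all 4 thioesterases had a change above 0 that missed the threshold. The median change was 0.16 log2 over the 40 genes and 0.00 over all genes, and 30 of the 40 had a change above 0, against 9772 of all 19237. In 2 of the 40, Pdk4 and Ehhadh, every hep-/- liver lay above every hep +/+ liver, against 2.89% of all genes whose genotypes did not overlap. These genes share regulators and livers, so they are not independent of each other. They are also brighter than most: all but Fgf21 passed a filter at the 50th percentile of mean intensity. Among genes above it, 962 were higher and 653 lower, with 11 higher and 1 lower from this group. The share called is thus larger among bright genes than over all 19237, here and for the lists below.

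**Figure D1:**
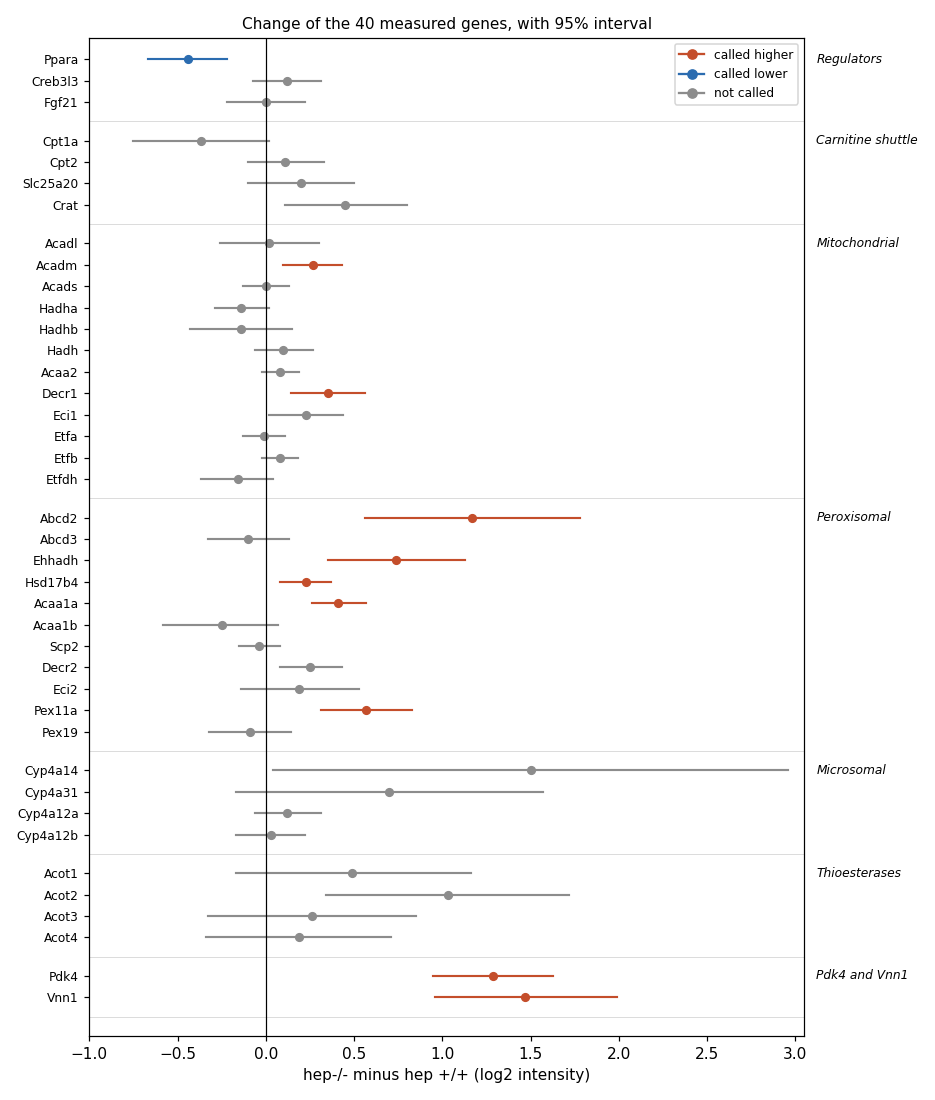
Change of each of the 40 measured genes, hep-/- minus hep +/+ in log2 intensity on the horizontal axis, with its 95% interval from the limma fit as a line, grouped by branch down the page. The 9 genes called higher are red, Ppara, called lower, is blue, and the 30 genes not called are grey. The widest interval is that of Cyp4a14, and the 12 mitochondrial genes lie between -0.16 and 0.35.

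Ppara was the sole regulator called, and its direction was opposite to that of the 9 genes called higher. It ran from 8.57 to 9.71 with a median of 9.11 in hep-/- livers, against 9.37 to 9.63 with a median of 9.51 in hep +/+ livers. In 7 of 8 hep-/- livers Ppara lay below every hep +/+ liver, and hep-/- liver 3 lay above every hep +/+ liver. Ppara fell by 0.44 log2 units (SE 0.11, limma adjusted p = 0.0116), to 73.5% of its hep +/+ level. Its call was lost without the 3 livers with adipocyte transcripts (-0.45, adjusted p = 0.0582), a fit with fewer livers.

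Creb3l3, a liver transcription factor that acts together with PPARalpha on fasting genes, ran from 9.31 to 10.1 with a median of 9.40 in hep-/- livers, against 9.31 to 9.45 with a median of 9.35 in hep +/+ livers. The genotypes overlapped and the change was 0.12 ± 0.09 (limma adjusted p = 0.594). Fgf21, the hormone that liver releases in fasting under PPARalpha, ran from 4.78 to 5.67 with a median of 4.87 in hep-/- livers, against 4.76 to 5.21 with a median of 4.93 in hep +/+ livers. Its change was 0.00 ± 0.10 (limma adjusted p = 0.997). For both genes the highest of the 16 livers was hep-/- liver 3.

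In the carnitine shuttle 0 of 4 genes were called in limma, and 1, Crat, had an unadjusted p under 0.05. Cpt1a makes the carnitine esters and is the entry step of mitochondrial oxidation. Its level ran from 8.98 to 10.87 with a median of 9.62 in hep-/- livers, against 9.73 to 10.19 with a median of 10.05 in hep +/+ livers. As with Ppara, 7 of 8 hep-/- livers lay below every hep +/+ liver and hep-/- liver 3 lay above them all. The change was -0.37 ± 0.18 (limma adjusted p = 0.317), and it was -0.54 without hep-/- liver 3, which then passed the test (adjusted p = 0.00461). Cpt2, which reverses the Cpt1a reaction inside the mitochondrion, had a change of 0.11 ± 0.10, and Slc25a20, the carrier of carnitine esters across the inner membrane, of 0.20 ± 0.15. Crat, the acetyltransferase that moves acetyl groups on and off carnitine, had a change of 0.45 ± 0.17 and missed the threshold (limma adjusted p = 0.114).

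Among the 12 mitochondrial genes measured, the median change was 0.05 and the changes ran from -0.16 to 0.35. Acadm, the medium-chain acyl-CoA dehydrogenase, ran from 10.48 to 11.1 with a median of 10.91 in hep-/- livers, against 10.4 to 10.76 with a median of 10.64 in hep +/+ livers. In 6 of 8 hep-/- livers it lay above every hep +/+ liver, and hep-/- livers 7 and 8 lay within the hep +/+ range. Acadm rose by 0.27 ± 0.08 (limma adjusted p = 0.0395). Decr1, the mitochondrial reductase needed for polyunsaturated chains, ran from 9.22 to 10.2 with a median of 9.59 in hep-/- livers, against 9.05 to 9.39 with a median of 9.30 in hep +/+ livers. It lay above every hep +/+ liver in 7 of 8 hep-/- livers and rose by 0.35 ± 0.10 (limma adjusted p = 0.0333). Both calls lie close to the threshold. Leaving out a single liver ended the Acadm call in 11 of 16 fits, with changes of 0.23 to 0.32 and adjusted p up to 0.0802, and the Decr1 call in 6 of 16, with changes of 0.27 to 0.41 and adjusted p up to 0.0715.

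The other 10 mitochondrial genes were not called. Acadl and Acads, the long-chain and short-chain dehydrogenases beside Acadm, had changes of 0.02 ± 0.14 and 0.00 ± 0.06. Hadha and Hadhb encode the subunits of the mitochondrial trifunctional protein, which carries out the later steps on long chains. Hadha ran from 9.98 to 10.53 with a median of 10.26 in hep-/- livers, against 10.19 to 10.51 with a median of 10.38 in hep +/+ livers. Its change was -0.14 ± 0.07 and that of Hadhb -0.14 ± 0.14 (limma adjusted p = 0.377 and 0.751). Hadhb has 2 single-gene probe sets, of which the brighter was used, and where in the genome each one maps was not tested. The subunit genes lie head to head, with starts 273 bases apart on chromosome 5, and the 250 bases before the start of Hadhb, which take up most of the stretch between them, are printed.
Hadhb, chr5:30155003-30155252, + strand: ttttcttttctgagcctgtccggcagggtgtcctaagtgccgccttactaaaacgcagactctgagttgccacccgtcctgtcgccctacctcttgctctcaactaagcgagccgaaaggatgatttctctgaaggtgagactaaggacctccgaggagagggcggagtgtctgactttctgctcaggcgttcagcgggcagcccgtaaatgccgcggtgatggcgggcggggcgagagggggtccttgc
It holds neither of the motifs searched, so no letters are in capitals. Hadh, the short-chain hydroxyacyl-CoA dehydrogenase, and Acaa2, a thiolase of the last step, had changes of 0.10 ± 0.08 and 0.08 ± 0.05. Eci1, which shifts unsaturated bonds into place, had a change of 0.23 ± 0.10 (limma adjusted p = 0.224) and passed the test without hep-/- liver 8 (0.32, adjusted p = 0.00285). Etfa, Etfb and Etfdh, which pass electrons from the dehydrogenases to the respiratory chain, had changes of -0.01 ± 0.06, 0.08 ± 0.05 and -0.16 ± 0.10.

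The peroxisomal branch held the most calls, with 5 of 11 genes higher (45.5%, against 5.49% of all genes), 0 lower and a median change of 0.23. The median change was larger for the microsomal genes (0.41) and the thioesterases (0.38), which had 0 calls and a larger spread between livers. Ehhadh, the bifunctional enzyme of the inducible peroxisomal pathway, ran from 10.18 to 11.96 with a median of 10.38 in hep-/- livers, against 9.51 to 10.07 with a median of 9.87 in hep +/+ livers. No hep-/- liver overlapped the hep +/+ livers, and hep-/- liver 3 stood at 11.96 with the next at 10.56. Ehhadh rose by 0.74 ± 0.19 (limma adjusted p = 0.013). Acaa1a, a peroxisomal thiolase, ran from 8.10 to 8.60 with a median of 8.41 in hep-/- livers, against 7.85 to 8.13 with a median of 7.93 in hep +/+ livers. It lay above every hep +/+ liver in 7 of 8 hep-/- livers and rose by 0.41 ± 0.07 (limma adjusted p = 0.000649). Its close relative Acaa1b had a change of -0.25 ± 0.16 and was not called (limma adjusted p = 0.48). The thiolase genes are near-identical in sequence, and whether their probe sets keep them apart was not tested.

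Pex11a, which promotes the division of peroxisomes, ran from 9.40 to 10.53 with a median of 9.82 in hep-/- livers, against 8.84 to 9.54 with a median of 9.27 in hep +/+ livers. All hep-/- livers but liver 8 lay above every hep +/+ liver, and Pex11a rose by 0.57 ± 0.12 (limma adjusted p = 0.00431). Abcd2, a peroxisomal membrane carrier of fatty acyl-CoA, ran from 5.65 to 7.90 with a median of 7.25 in hep-/- livers, against 5.22 to 6.63 with a median of 5.98 in hep +/+ livers. It rose by 1.17 ± 0.29 (limma adjusted p = 0.0129), with 6 of 8 hep-/- livers above every hep +/+ liver. Hep-/- liver 3 was not at the top for Abcd2, at 7.00. The related carrier Abcd3, at a mean of 10.58 ± 0.33 in hep-/- livers and 10.69 ± 0.09 in hep +/+ livers (SD, n = 8 each), was not called (change -0.10 ± 0.11).

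Hsd17b4, the bifunctional enzyme for branched chains and bile acid intermediates, ran from 10.01 to 10.43 with a median of 10.18 in hep-/- livers, against 9.77 to 10.18 with a median of 9.97 in hep +/+ livers. It rose by 0.23 ± 0.07 (limma adjusted p = 0.0417), the smallest change among the 9, and the call was lost in 13 of 16 fits that left out a single liver (adjusted p up to 0.0926). The remaining peroxisomal genes were not called. Decr2, the peroxisomal counterpart of Decr1, had a change of 0.25 ± 0.09 (limma adjusted p = 0.0753) and passed the test without hep-/- liver 8 (0.33, adjusted p = 0.00134). The change was 0.19 ± 0.16 for Eci2, a peroxisomal enoyl-CoA isomerase, -0.04 ± 0.05 for Scp2, which carries the thiolase for branched chains, and -0.09 ± 0.11 for Pex19, a chaperone of peroxisomal membrane proteins. Without the 3 livers with adipocyte transcripts, Ehhadh and Abcd2 had changes of 0.68 and 1.11 and adjusted p of 0.0921 and 0.0526, in a fit with fewer livers.

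**Figure D2:**
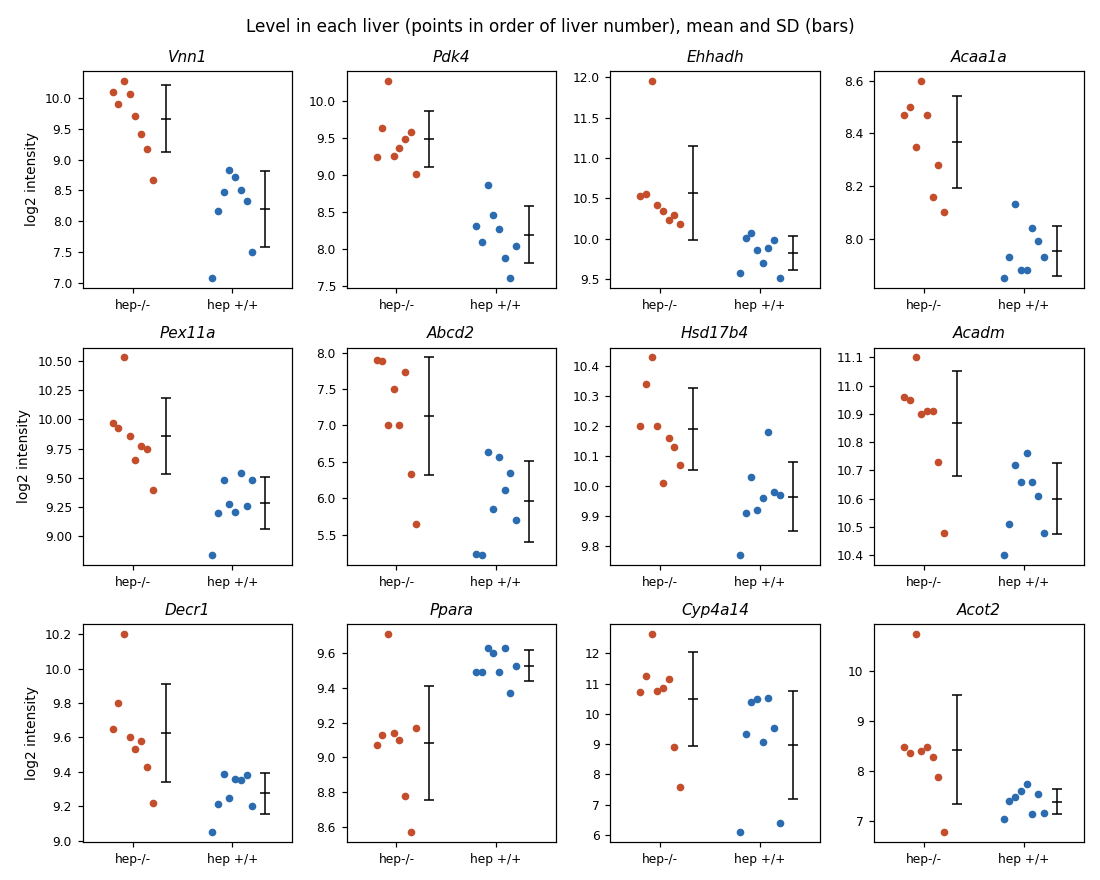
Level in each liver, in log2 intensity, of the 10 called genes and of Cyp4a14 and Acot2, with hep-/- livers in red on the left and hep +/+ livers in blue on the right of each panel, in order of liver number. Bars give the mean and SD of the 8 livers. For Pdk4 and Ehhadh the colours do not overlap, while for Cyp4a14 the hep +/+ livers spread from 6.10 to 10.51.

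In the microsomal branch 0 of 4 genes were called in limma, although Cyp4a14 had the largest change of the 40 and an unadjusted p under 0.05. Cyp4a14, the fatty acid hydroxylase long used as a readout of PPARalpha in mouse liver, ran from 7.57 to 12.63 with a median of 10.81 in hep-/- livers, against 6.10 to 10.51 with a median of 9.44 in hep +/+ livers. In 6 of 8 hep-/- livers it lay above every hep +/+ liver, and hep-/- livers 7 and 8 lay within the hep +/+ range. The change of 1.5 ± 0.70 did not pass the test (limma adjusted p = 0.261), with an SD between livers of 1.55 in hep-/- and 1.77 in hep +/+. Cyp4a31 ran from 7.39 to 11.42 in hep-/- livers, against 7.58 to 9.73 in hep +/+ livers, with a change of 0.70 ± 0.42 (limma adjusted p = 0.45). Cyp4a12a and Cyp4a12b, hydroxylases that are male-biased in mouse liver, had changes of 0.12 ± 0.09 and 0.03 ± 0.09, and hep-/- liver 3, the highest of all for Cyp4a14 and Cyp4a31, stood at 11.58 and 11.36 for them, inside the range of the other livers. The Cyp4a genes are close relatives, and whether signal is shared between their probe sets was not tested.

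The thioesterase genes Acot2, Acot1, Acot4 and Acot3 lie next to each other on chromosome 12, with starts spanning 64.3 kb. In limma 0 of the 4 were called, and 1, Acot2, had an unadjusted p under 0.05. Acot2, the mitochondrial member, ran from 6.79 to 10.72 with a median of 8.37 in hep-/- livers, against 7.05 to 7.74 with a median of 7.45 in hep +/+ livers. In 7 of 8 hep-/- livers it lay above every hep +/+ liver, and hep-/- liver 8 lay below them all. The change was 1.03 ± 0.33 (limma adjusted p = 0.0611), and it passed the test without hep-/- liver 3 (0.70, adjusted p = 0.0303) or without hep-/- liver 8 (1.26, adjusted p = 0.00594). Acot1, the cytosolic member, had a change of 0.49 ± 0.32, and the peroxisomal members Acot3 and Acot4 of 0.26 ± 0.28 and 0.19 ± 0.25. Hep-/- liver 3 was the highest liver for all 4, at 8.12 for Acot1, 10.72 for Acot2, 7.82 for Acot3 and 9.04 for Acot4. Without that liver the changes of Acot3 and Acot4 were 0.03 and 0.00. Acot1 and Acot2 are near-identical, so their values may share signal.

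Pdk4 and Vnn1 had the largest changes among the called genes. Pdk4, a kinase that limits the conversion of pyruvate to acetyl-CoA when fat is burned, ran from 9.02 to 10.28 with a median of 9.43 in hep-/- livers, against 7.61 to 8.87 with a median of 8.19 in hep +/+ livers. The genotypes did not overlap and Pdk4 rose by 1.29 ± 0.16 (limma adjusted p = 1.68e-05), a fold of 2.45. Vnn1, the pantetheinase vanin-1, ran from 8.67 to 10.29 with a median of 9.81 in hep-/- livers, against 7.07 to 8.84 with a median of 8.40 in hep +/+ livers. All hep-/- livers but liver 8 lay above every hep +/+ liver, and Vnn1 rose by 1.47 ± 0.25 (limma adjusted p = 0.000355), a fold of 2.77. Both calls held in all 29 alternative fits, with changes of 1.18 to 1.39 for Pdk4 and 1.31 to 1.61 for Vnn1. The same was true of Pex11a, at 0.48 to 0.64.

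The hep-/- livers differed more among themselves than the hep +/+ livers for these genes. The SD over 8 livers was larger in hep-/- for 35 of the 40 genes, against 10346 of all 19237 genes, and its median was 0.32 in hep-/- livers and 0.16 in hep +/+ livers. Over all genes the median SDs were 0.17 in hep-/- livers and 0.16 in hep +/+ livers. Hep-/- liver 3 was the highest hep-/- liver for 29 of the 40 genes, while it was the highest for 9.34% of all genes. Hep-/- liver 8 was the lowest for 30 of the 40 and for 18.2% of all genes, and it was the highest hep-/- liver for 32% of all genes. It was the lowest for 13 of the 16 carnitine shuttle and mitochondrial genes and for 9 of the 11 peroxisomal genes. Among hep +/+ livers, liver 1 was the lowest in 18 of the 40 genes (23.9% of all genes) and liver 3 the highest in 17 (12.7%).

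The difference from the hep +/+ means was also summarised as a median over the genes of a branch. In hep-/- liver 3 it was 2.26 log2 for the thioesterases, 1.22 for the microsomal genes, 0.89 for the carnitine shuttle, 0.46 for the peroxisomal and 0.25 for the mitochondrial genes. In hep-/- liver 8 these were -0.57, -0.51, -0.37, -0.25 and -0.22. Peroxisomal medians in the other 6 hep-/- livers lay between 0.16 and 0.37, against -0.20 to 0.17 in hep +/+ livers. Pdk4 and Vnn1 alone had a positive median in every hep-/- liver, from 0.65 in liver 8 to 2.09 in liver 3, against -0.51 to 0.47 in hep +/+ livers. Summed macrophage and endothelial markers were lowest of all in hep-/- liver 8, at 1640 and 1550 intensity units, against 1870 to 3150 and 1790 to 2400 in the other 15 livers. In hep-/- liver 3 they stood at 2310 and 2280, within the range of the rest. The part of cell makeup in the values of these livers was not tested.

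**Figure D3:**
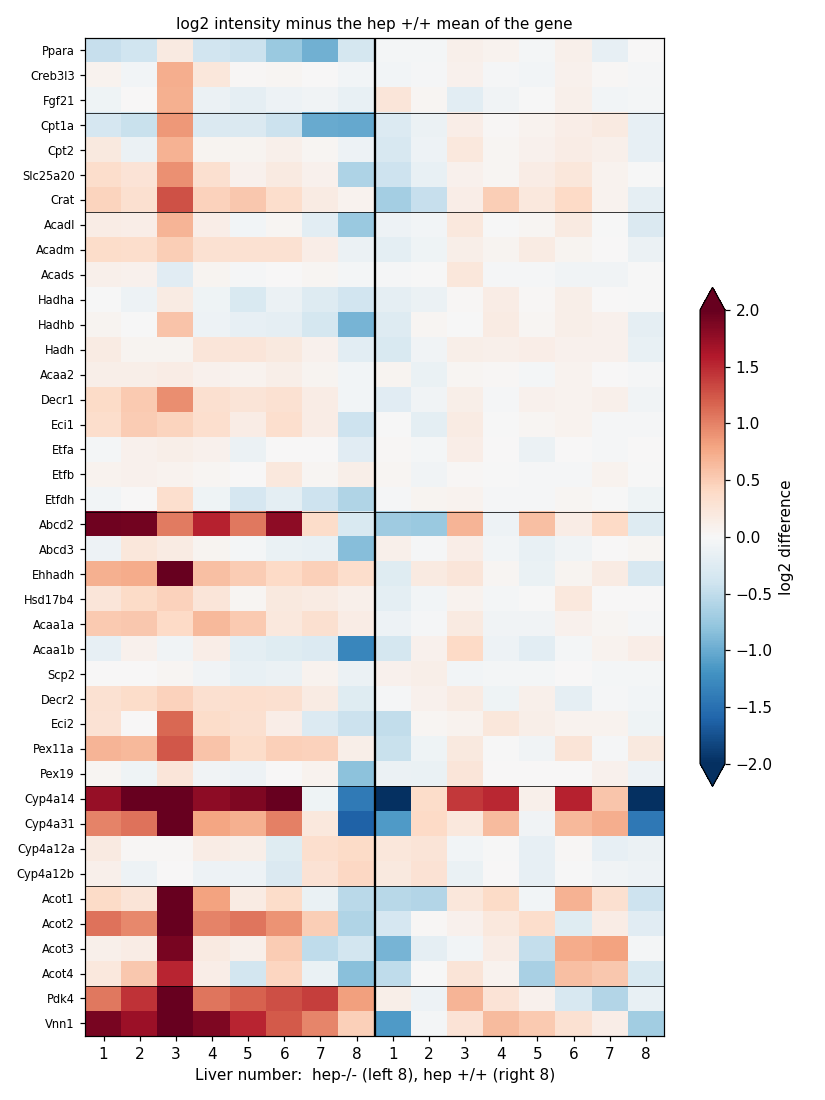
Log2 intensity of each of the 40 genes in each liver minus the mean of that gene in hep +/+ livers, with the 8 hep-/- livers left of the vertical line and the 8 hep +/+ livers right of it, and horizontal lines between branches. Colours stop at 2 log2 units in either direction. Hep-/- liver 3 is red in most rows and hep-/- liver 8 is blue in most, while the Pdk4 and Vnn1 rows are red across all hep-/- livers.

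**Figure D4:**
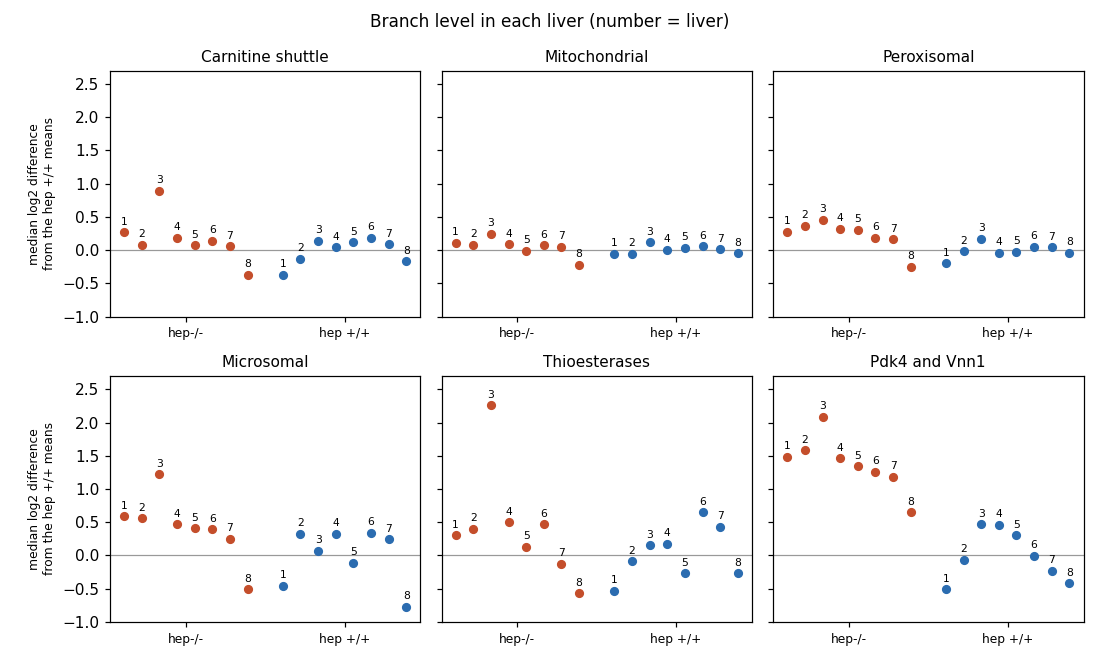
Median over the genes of a branch of the log2 difference from the hep +/+ means, 1 point per liver with its number, hep-/- livers in red on the left and hep +/+ livers in blue on the right. The thioesterase median reaches 2.26 in hep-/- liver 3, and the panel of Pdk4 and Vnn1 is the sole panel in which the genotypes do not overlap.

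Whether the targets vary together between livers of a genotype was tested for Cyp4a14 with Vnn1 and with Pdk4 and for Ppara with Cyp4a14, in each genotype, 6 relations in all over 8 livers each. Cyp4a14 and Vnn1 had a Pearson r of 0.89 in hep-/- livers (exact permutation p = 0.00337, 0.0202 after Benjamini-Hochberg adjustment over the 6) and a Spearman rho of 0.60 (exact permutation p = 0.132, adjusted 0.227). In hep +/+ livers r was 0.92 (exact permutation p = 0.00719, adjusted 0.0216) and rho was 0.71 (exact permutation p = 0.0576, adjusted 0.173). Without the 2 livers farthest from the median of Cyp4a14, r was 0.43 in hep-/- livers and 0.32 in hep +/+ livers. The relation thus rests on hep-/- livers 7 and 8 and on hep +/+ livers 1 and 8, which are low for both genes. At the low end hep-/- liver 8 had 7.57 for Cyp4a14 and 8.67 for Vnn1, while hep +/+ liver 1 had 6.10 and 7.07. Cyp4a14 and Pdk4 had r of 0.70 in hep-/- livers (exact permutation p = 0.07, adjusted 0.14) and rho of 0.76 (exact permutation p = 0.0368, adjusted 0.173). Without hep-/- livers 7 and 8, the farthest from the Cyp4a14 median, r was 0.99 over the other 6. In hep +/+ livers r was 0.12 (exact permutation p = 0.765, adjusted 0.765) and rho -0.02 (exact permutation p = 0.977, adjusted 0.977), with r of 0.35 without livers 1 and 8. Ppara and Cyp4a14 had r of 0.48 in hep-/- livers (exact permutation p = 0.229, adjusted 0.344) and rho of 0.26 (exact permutation p = 0.536, adjusted 0.644). Without hep-/- livers 3 and 7, the farthest from the Ppara median, r was -0.43, so its sign rests on those livers. In hep +/+ livers r was 0.37 (exact permutation p = 0.348, adjusted 0.418) and rho 0.57 (exact permutation p = 0.151, adjusted 0.227), with r of 0.63 without livers 3 and 7. None of these 4 relations passed the threshold after adjustment.

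**Figure D5:**
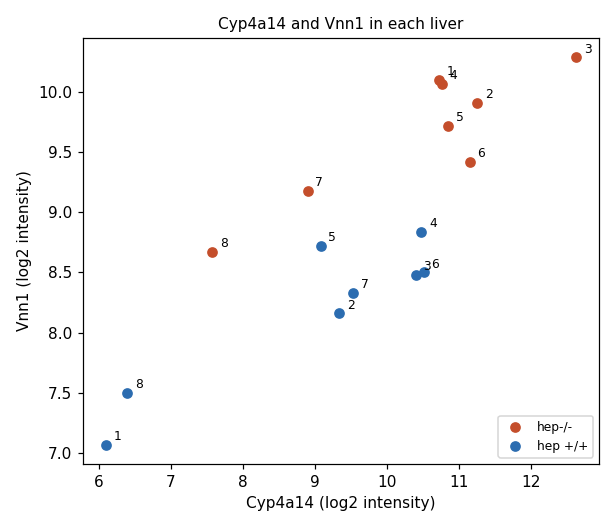
Vnn1 against Cyp4a14 in log2 intensity, 1 point per liver with its number, hep-/- livers in red and hep +/+ livers in blue. Above 10 on the horizontal axis, Vnn1 lies at 9.42 or higher in 6 hep-/- livers and at 8.84 or lower in 3 hep +/+ livers, and the low livers of each genotype carry the slope.

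Ketone bodies are made from the acetyl-CoA of beta-oxidation, and 6 genes of their synthesis and export were measured. Of the 6, 3 were higher and 0 lower (50%, against 5.49% of all genes), with a median change of 0.39. Bdh2, a cytosolic hydroxybutyrate dehydrogenase, ran from 8.07 to 9.03 in hep-/- livers, against 7.35 to 7.91 in hep +/+ livers, did not overlap and rose by 0.77 ± 0.11 (limma adjusted p = 7e-05). The monocarboxylate carrier Slc16a1 ran from 8.59 to 9.74 in hep-/- livers, against 7.96 to 8.53 in hep +/+ livers, and rose by 0.65 ± 0.13 (limma adjusted p = 0.0018). Its relative Slc16a7 ran from 8.63 to 9.42 in hep-/- livers, against 8.22 to 8.94 in hep +/+ livers, and rose by 0.51 ± 0.11 (limma adjusted p = 0.00549). The mitochondrial enzymes of the pathway were not called, with changes of -0.42 ± 0.18 for Acat1 and -0.11 ± 0.09 for Bdh1.

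Other reported PPARalpha targets of liver numbered 29 measured of 34, of which 7 were higher (24.1%) and 1, Gpt2, was lower (3.45%), against 5.49% and 3.2% of all genes, with a median change of 0.21. Cidec, a lipid droplet protein, rose by 2.83 ± 0.26 to a mean of 9.13 ± 0.33 in hep-/- livers, against 6.30 ± 0.81 in hep +/+ livers (limma adjusted p = 2.28e-07). Krt23, a keratin, ran from 5.71 to 6.44 in hep-/- livers, against 4.16 to 4.95 in hep +/+ livers, and rose by 1.45 ± 0.12 (limma adjusted p = 7.43e-08). The fatty acid uptake genes Cd36 and Slc27a1 rose by 1.41 ± 0.20 and 1.12 ± 0.14 (limma adjusted p = 4.95e-05 and 7.92e-06). Cd36 ran from 8.31 to 9.82 in hep-/- livers, against 7.35 to 8.77 in hep +/+ livers. Slc27a1 did not overlap, at 7.12 to 7.96 in hep-/- livers, against 5.99 to 6.86 in hep +/+ livers. The calls of Cidec, Krt23, Cd36 and Slc27a1 held in every alternative fit run, those without the livers with adipocyte transcripts included.

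Of 16 measured genes for acyl-CoA synthesis and fatty acid uptake (of 20), 3 were higher (18.8%, against 5.49% of all genes), which are Slc27a1, Cd36 and Slc27a4, all of them also in the list of reported targets. Slc27a4 rose by 0.21 ± 0.06 (limma adjusted p = 0.0459), a call lost in 13 of 16 fits that left out a single liver. Of 8 measured genes of carnitine supply (of 10), 1 was lower (12.5%, against 3.2% of all genes): Aldh9a1, a step of carnitine synthesis, fell by 0.29 log2 units (SE 0.06, limma adjusted p = 0.00296). Among 20 measured mitochondrial enzymes of other acyl-CoA paths (of 22), 3 were higher (15%, against 5.49% of all genes) and 1 lower (5%, against 3.2%). Acad12 and Acad10, acyl-CoA dehydrogenase family members, rose by 0.77 ± 0.11 and 0.31 ± 0.08 (limma adjusted p = 8.11e-05 and 0.0152). Acot10 rose by 0.31 ± 0.08 from a dim probe set (mean 3.94 in hep-/- livers and 3.63 in hep +/+ livers, limma adjusted p = 0.018). Hsd17b10, of branched amino acid breakdown, fell by 0.31 log2 units (SE 0.08, limma adjusted p = 0.0123).

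Of 29 other peroxisomal enzymes measured (of 34), which include some of beta-oxidation such as Acox2, Acox3 and Ech1, 0 were higher in limma (4 at an unadjusted p under 0.05), against 5.49% of all genes, and 5 were lower (17.2%), against 3.2% of all genes, with a median change of 0.04. Hacl1, the lyase of alpha-oxidation, ran from 10.04 to 10.52 in hep-/- livers, against 10.66 to 11.02 in hep +/+ livers, and fell by 0.57 log2 units (SE 0.08, limma adjusted p = 3.66e-05). Pipox, which oxidises pipecolic acid and sarcosine, fell by 0.54 (SE 0.08, limma adjusted p = 4.2e-05), and its genotypes did not overlap either. Uox, urate oxidase, ran from 9.98 to 10.71 in hep-/- livers, against 10.7 to 11.16 in hep +/+ livers, and fell by 0.63 (SE 0.10, limma adjusted p = 0.00015). Agxt, which converts glyoxylate to glycine, fell by 0.55 (SE 0.10, limma adjusted p = 0.000638), and Hao1, which makes glyoxylate, by 0.34 (SE 0.09, limma adjusted p = 0.0154). Of 11 measured peroxisome biogenesis genes (of 14), 0 were called in limma in either direction, and the furthest from 0 were Pex10 (0.27 ± 0.10, adjusted p = 0.0905) and Pex2 (-0.19 ± 0.08, adjusted p = 0.189), both of which have an unadjusted p under 0.05.

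A list of PPARalpha partners and coregulators had 21 genes measured (of 24), and it also holds the sister receptors and FGF21 receptor genes. Of the 21, 2 were higher and 2 lower (9.52% each, against 5.49% and 3.2% of all genes). These were Pparg, Fgfr1, Ppard and Klb, and no measured retinoid X receptor or coregulator was called. The sister receptors moved in opposite directions: Pparg, which is low in healthy liver and high in fat, ran from 7.5 to 8.77 in hep-/- livers, against 6.95 to 7.84 in hep +/+ livers, and rose by 0.82 ± 0.18 (limma adjusted p = 0.00538). Ppard ran from 6.89 to 8.02 in hep-/- livers, against 7.88 to 8.25 in hep +/+ livers, and fell by 0.56 log2 units (SE 0.13, limma adjusted p = 0.00706). Of the receptor that FGF21 uses, the coreceptor Klb fell by 0.56 (SE 0.10, limma adjusted p = 0.000714) and Fgfr1 rose by 1.03 ± 0.08 (limma adjusted p = 3.25e-08). Fgfr1 ran from 7.30 to 7.72 in hep-/- livers, against 6.22 to 6.69 in hep +/+ livers, with no overlap. Rxra, the partner of PPARalpha on DNA, had a change of -0.14 ± 0.06 and was not called.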

How the data were processed

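Per the submitters' processing notes, the authors used Affymetrix Expression Console, and the values they deposited are intensities on a linear scale, 1 per probe set. The sources used here do not give its version or the background correction, summary and normalization it applied. Each array received biotin-labelled material amplified from 100 ng of RNA, per the labels. Array medians lay between 38.9 and 43.5 intensity units, and no array repeated another. A change is relative to the other genes of its array, and the number of arrays limits the precision.

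The values were taken to log2 with no pseudocount. Of 35556 probe sets, 21456 were annotated with exactly 1 gene, 2376 with several and 11724 were not listed. The brightest probe set on average stood for each of 19237 genes, and symbols were checked against RefSeq (GRCm38.p6). The genotypes, 8 livers each, were set against each other in limma 3.58.1 under R 4.3.3 (lmFit, then eBayes), 2-sided, with Benjamini-Hochberg adjustment across the 19237 genes and calls at an adjusted p under 0.05. Errors of changes are SE from that fit, and SDs are over livers. The limma fit and its adjustment were also run on simulated data with known changes, drawn as independent normal values from the means and SDs found here. The labels number the livers within each genotype as biological replicates.

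The members and gene lists were chosen with earlier results of these data known. All members are counted. The called ones and a set of main enzymes and regulators are given per genotype, and from each list up to 4 called genes with the smallest p, or the 1 or 2 furthest from 0 where none was called. Gpt2, Hao1, Acat1, Bdh1 and Rxra fall outside that rule and were chosen after their values were seen. The relation of Cyp4a10 with Cyp4a14 could not be run without a probe set for Cyp4a10, which left 6 of the planned relations. Alternatives were a replicate block, quantile normalization, median centring, intensity filters, averaged probe sets per gene, robust variances with an intensity trend, array weights, a pseudocount of 16 and leaving out each liver. Fits without the livers with adipocyte or skeletal muscle transcripts, and without hep-/- livers 3 and 8, were added after seeing the data.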

Additional observations from a re-analysis of the deposited data

Results flagged for a closer look

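A liver was picked out where its gap to the nearest liver of its genotype, set against the whole range of the 8, passed Dixon's 95% limit. This happened 21 times in 128 groups tested (64 genes in each genotype). The limit is passed in about 1 in 20 groups of independent normal values. These genes share the same livers and are not independent, and the rate over all genes was not computed, so the count was not tested against chance. For the 40 genes of fatty acid oxidation and PPARalpha it happened 18 times in 80 groups, in 16 cases in hep-/- livers 3 or 8. Values are log2 intensity.

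Hep-/- liver 3 stood above the other hep-/- livers for 9 of the 40 genes. Among regulators and the carnitine shuttle these were Creb3l3 at 10.1 (next liver 9.59), Fgf21 at 5.67 (next 4.97), Cpt1a at 10.87 (next 9.72), Cpt2 at 10.38 (next 9.88) and Crat at 10.04 (next 9.31). The others were Ehhadh at 11.96 (next 10.56) and the thioesterases Acot1 at 8.12 (next 6.30), Acot2 at 10.72 (next 8.48) and Acot3 at 7.82 (next 6.43). The carrier Slc16a1 was high there too, at 9.74 (next 8.98). Acads was low in the same liver, at 9.34 (next 9.52), and high in hep +/+ liver 3, at 9.79 (next 9.56).

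Hep-/- liver 8 stood below the other hep-/- livers for Hadh at 11.3 (next 11.56), Eci1 at 8.94 (next 9.50), Abcd3 at 9.84 (next 10.54), Acaa1b at 7.76 (next 8.79), Decr2 at 10.12 (next 10.53) and Pex19 at 8.18 (next 8.90), and for the carrier Slc16a7 at 8.63 (next 9.05). In hep +/+ livers, Eci2 was low in liver 1, at 7.86 (next 8.26), and Slc27a4 in liver 2, at 7.03 (next 7.32).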

How the results depend on the processing

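Among the 40 members and the 23 other genes recomputed under the alternatives, no called change turned direction. In the fits that left out a single liver, the members called higher numbered 6 to 12 and those called lower 1 to 2, with 2 without hep-/- liver 3, where Cpt1a joined Ppara. Without the 3 livers with adipocyte transcripts, 4 members were higher and 0 lower. Without the 5 livers with adipocyte or skeletal muscle transcripts, 586 genes were higher and 307 lower, against 1057 and 616 with all livers, and 3 members were higher (Vnn1, Pdk4 and Pex11a) and 0 lower in limma; both fits have fewer livers. In that fit Acaa1a had a change of 0.35 (adjusted p = 0.0635) and Ppara of -0.44 (adjusted p = 0.153). Without hep-/- livers 3 and 8 together, 2 members were lower, and Acot2, Decr2 and Eci1 passed the test beside Cpt1a. Centring arrays on their medians ended the calls of Acadm, Decr1 and Hsd17b4 (adjusted p = 0.143, 0.0959 and 0.155). With a replicate block, 942 genes were higher and 582 lower, with 10 members higher and 1 lower: Hsd17b4 dropped out (adjusted p = 0.074), and Acot2 (0.0342) and Cyp4a14 (0.0377) entered. The labels do not say whether same-numbered livers of the genotypes belong together. Their deviations correlated over 0.1 in 2 of 8 pairs (range -0.26 to 0.23), and 0 livers correlated best with their own number. Such correlations cannot show how the livers were handled. Fgf21, Acads, Acadl, Etfa, Abcd3, Pex19, Acot4 and Cyp4a12b, none of them called, changed sign under some alternatives, with changes of -0.10 to 0.02 there. No background level was at hand, so which dim genes it limits was not tested.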
